A study of Aedes albopictus with 6 samples.

Results

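Troponin C is the calcium sensor of striated muscle, and 8 genes described as troponin C or troponin C-like were followed in the ovary of Aedes albopictus, the Asian tiger mosquito. They were taken by gene symbol from a table of 34479 genes, 23529 of which carried values. They were chosen by their descriptions and by their read counts in these same 6 libraries, since the list was drawn up with the contrast of overexpression against control already known. The levels of the 8 genes and their differences between groups are therefore a description, given without a test. One group of libraries carried an overexpression of Aalpi18529, a PIWI-interacting RNA that the series' design text says was supplied as a mimic, a synthetic copy of the small RNA, after a blood meal (n = 3). The other was labelled control (n = 3). Strain, age, time after the blood meal, the dose of the mimic and the number of females per library are not given in these sources, and nothing says that the libraries came from separate cages, so the spread between them may be technical.

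Troponin C sits on the thin filament with troponin T, which anchors the complex to tropomyosin, and troponin I, which holds contraction off until calcium arrives. When calcium enters the cytoplasm it binds the EF-hands of troponin C, the complex shifts, and myosin can reach actin. In Drosophila several troponin C genes are used in different muscles and stages, flight muscle among them. In an insect ovary, muscle lies in the sheaths around the ovarioles and the ovary and in the oviduct wall. Which cells the reads of these genes came from was not measured in this bulk RNA.

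The 8 genes lay on 4 scaffolds of the deposited annotation, and 5 of them stood on a single scaffold, NW_021838576.1. From its start these were LOC115269964 (positions 1560158 to 1561480), LOC115269965 (1616884 to 1665574), LOC109422787 (2607460 to 2664549), LOC115269966 (2738673 to 2795564) and LOC109425698 (2884483 to 2938555). A further gene described as troponin C that is not on the list, LOC109425699, followed at 2993458 to 3036683, so 6 troponin C genes fell within 1.48 Mb. Between LOC109422787, LOC115269966 and LOC109425698 the table listed no other gene, with gaps of 74.1 kb and 88.9 kb. LOC115269964 spanned 1323 bases, whereas the spans of the other 7 members ran from 37878 to 66243 bases. LOC109404813 stood on scaffold NW_021838153.1 (positions 154286231 to 154352473), 1.82 Mb from the other unlisted troponin C gene, LOC109423927 (152409282 to 152465370). LOC109418939 (scaffold NW_021838392.1, 432985 to 471745) and LOC109407754 (NW_021839057.1, 120143 to 158020) each stood alone. A newer RefSeq gene table, for assembly AalbF5, held 4 of the 8 gene IDs, and there too LOC109422787 and LOC115269966 were next to each other, with 0 genes between them.

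Library totals ran from 15719412 to 16465531 estimated counts. Levels are given in CPM, the estimated counts per 1000000 counts of the TMM-scaled library total. CPM counts reads, not molecules, and transcript lengths were not used here, so an order of genes by CPM is an order of their reads. The tissue label was borne out by germ line genes: the summed CPM of 6 vasa, nanos and oskar genes was 6115 to 6257 in overexpression libraries and 5826 to 6167 in controls, with 0 of the 6 called by edgeR, 0 at an unadjusted p under 0.05 and 0 by DESeq2. Muscle transcripts were present in every library, with troponin T (LOC109432137) at 97.7 ± 6.91 CPM with overexpression and 101 ± 4.58 CPM in controls (SD, n = 3). All 8 troponin C genes passed the filter on low counts. None held whole-number estimates in all 6 libraries, which leaves room for reads having been divided among similar genes, and the level of each copy is uncertain to that extent.

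Troponin C reads in these ovaries came mostly from a pair of genes. LOC109418939 supplied 50.7% of all estimated counts of the 8 genes and LOC109407754 22.2%, followed by LOC109404813 with 9.06%, LOC115269964 with 7.11% and LOC115269966 with 6.77%. LOC109425698 supplied 3.06%, LOC115269965 0.657% and LOC109422787 0.40%. Over all 6 libraries LOC109418939 spanned 55.1 to 97.9 CPM and LOC109407754 25.4 to 42.5 CPM, with no overlap between these neighbours. LOC115269964 (9.18 to 12.2 CPM) and LOC115269966 (8.49 to 10.9 CPM) overlapped each other. LOC109425698 (3.61 to 5.79 CPM) lay below both and above the 2 rarest, LOC115269965 (0.594 to 1.29 CPM) and LOC109422787 (0.438 to 0.753 CPM), which overlapped.

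**Figure D1:**
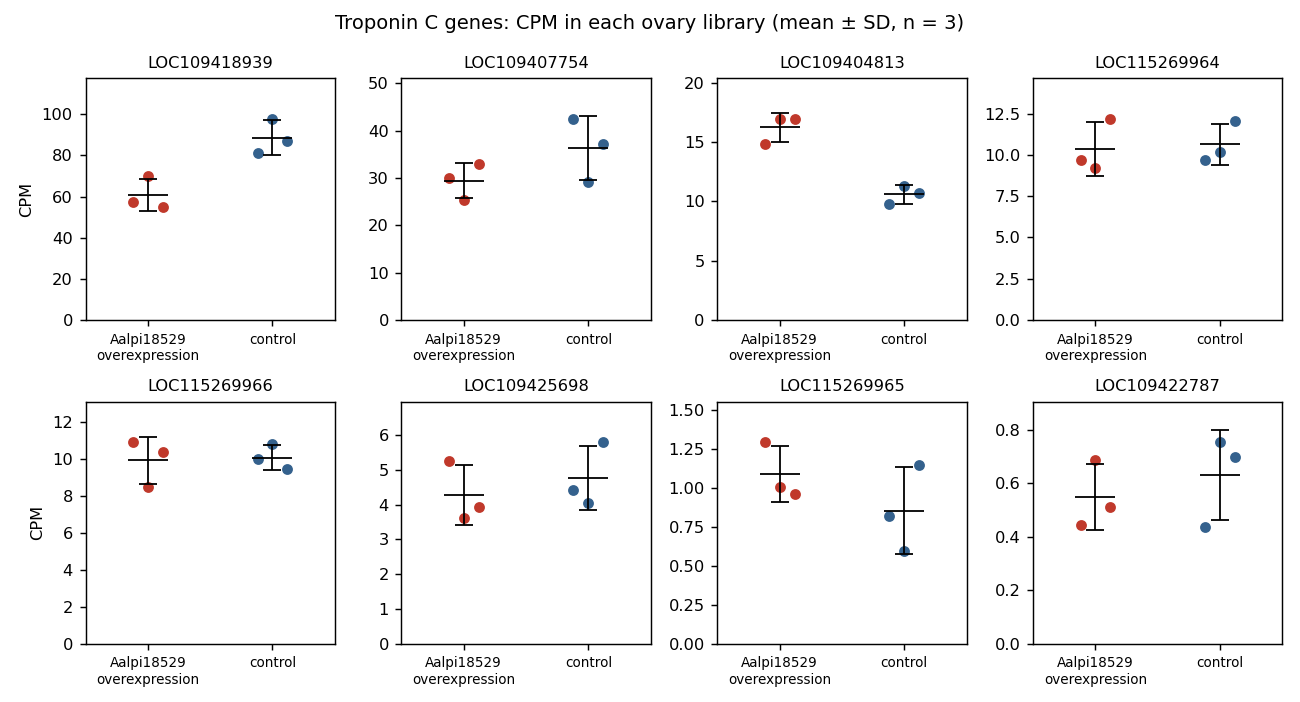
CPM of each of the 8 troponin C genes in the 3 Aalpi18529 overexpression libraries (red, left) and the 3 control libraries (blue, right), with mean ± SD; each panel has its own axis from 0. LOC109418939 lies lower in every overexpression library, LOC109404813 higher in every one, and the groups overlap in the other 6 genes.

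The most read copy, LOC109418939, was lower with overexpression. It stood at 57.4, 69.8 and 55.1 CPM in overexpression libraries 1, 2 and 3, against 81.4, 97.9 and 86.8 CPM in control libraries 1, 2 and 3. The highest overexpression library lay below the lowest control, and the overexpression mean of 60.8 ± 7.88 CPM was 68.5% of the control mean of 88.7 ± 8.41 CPM (SD, n = 3). On the log2 scale the difference was -0.54 ± 0.11 (SE). In estimated counts these were 923.79, 1114.83 and 859.09 with overexpression and 1292.43, 1605.51 and 1435.2 in controls, so it is also the copy with the most counts behind it.

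LOC109404813 stood the other way. It had 14.8, 17.0 and 17.0 CPM in overexpression libraries 1, 2 and 3, against 9.78, 11.3 and 10.7 CPM in the controls. Every overexpression library lay above every control, and the mean of 16.3 ± 1.23 CPM with overexpression was 1.54 times the control mean of 10.6 ± 0.77 CPM (SD, n = 3). On the log2 scale that was 0.62 ± 0.13 (SE). In controls its reads were level with those of LOC115269964 and LOC115269966, whose libraries its own overlapped. With overexpression it stood above both, since neither exceeded 12.2 CPM there.

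The reads of these copies can also be set against each other within a library. LOC109418939 had 3.87, 4.11 and 3.25 times the CPM of LOC109404813 in overexpression libraries 1, 2 and 3, and 8.32, 8.65 and 8.14 times in controls 1, 2 and 3. The ratio averaged 3.75 ± 0.44 with overexpression and 8.37 ± 0.26 in controls (SD, n = 3), which is 44.8% of the control. Since the ratio divides the copy that was lower by the one that was higher, its wider gap follows from the choice of the pair. A ratio within a library does not depend on how libraries are scaled, and it shows unequal change, not which copy changed.

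LOC109407754, the only one of the 8 described simply as troponin C, had 30.0, 25.4 and 32.9 CPM in overexpression libraries and 42.5, 29.2 and 37.2 CPM in controls. The groups overlapped, as control library 2 fell among the overexpression libraries, and the log2 fold change was -0.30 ± 0.15 (SE). The 5 copies that share a scaffold showed no gap between groups. LOC115269964 averaged 10.4 ± 1.61 CPM with overexpression and 10.7 ± 1.24 CPM in controls, and LOC115269966 averaged 9.92 ± 1.26 CPM with overexpression and 10.1 ± 0.69 CPM in controls (SD, n = 3 each). LOC109425698 averaged 4.27 ± 0.87 CPM with overexpression and 4.75 ± 0.92 CPM in controls. Summed, the 5 came to 26.2 ± 2.79 CPM with overexpression and 27.0 ± 1.95 CPM in controls (SD, n = 3).

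**Figure D2:**
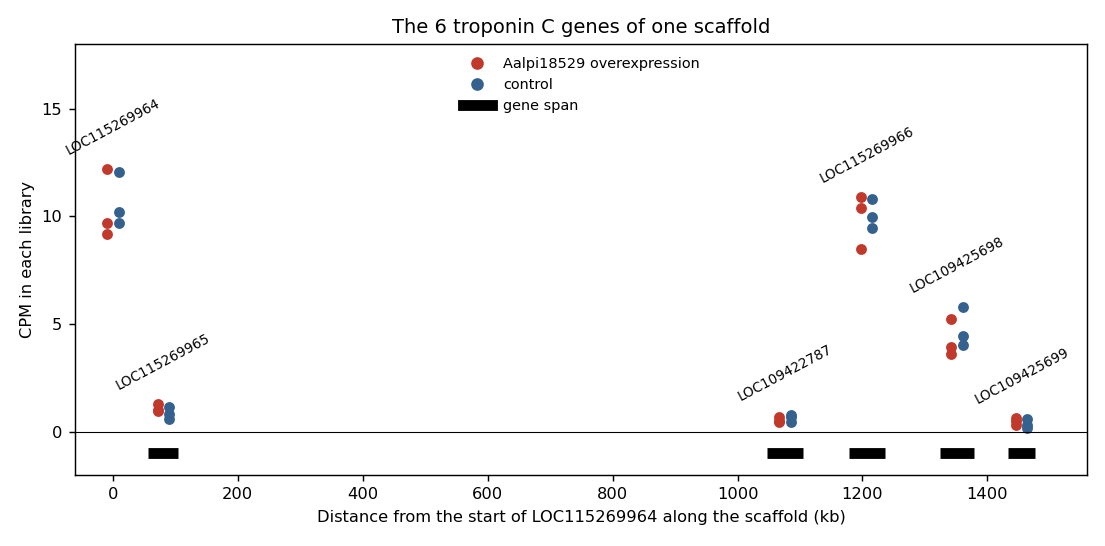
CPM in each library (vertical axis) of the 6 troponin C genes of scaffold NW_021838576.1, placed by distance in kb from the start of LOC115269964 (horizontal axis); black bars mark the gene spans, that of LOC115269964 being too short to see. Overexpression (red) and control (blue) libraries overlap in all 6, and LOC115269964 and LOC115269966, at opposite sides of the widest gap, carry the most reads.

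The rarest copies were at the edge of what this depth can measure. LOC109422787 had 7.17, 10.97 and 7.99 estimated counts with overexpression and 6.96, 12.35 and 11.57 in controls. LOC115269965 had 20.81, 16.12 and 15 estimated counts with overexpression and 13.03, 9.74 and 18.99 in controls. Counting alone would spread libraries of these means by 33.9% and 31.2% of the mean for LOC109422787 (overexpression and control). For LOC115269965 it would be 24.0% and 26.8%. Whether differences of the size seen in the abundant copies could be detected in them was not tested. The 2 troponin C genes outside the list were as rare. LOC109425699, which did not pass the filter, averaged 0.48 ± 0.15 CPM with overexpression and 0.35 ± 0.20 CPM in controls. LOC109423927, which lies on the scaffold of LOC109404813, had 0.773, 0.678 and 0.635 CPM with overexpression and 0.353, 0.393 and 0.52 CPM in controls, without overlap, from estimated counts of 5.61 to 12.44 (log2 fold change 0.68 ± 0.36, SE).

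None of the 8 troponin C genes passed a Benjamini-Hochberg adjusted p of 0.05 over all 15540 genes in edgeR's quasi-likelihood test, where 0.0129% of genes did. At an unadjusted p under 0.05 there were 2 of them, LOC109418939 and LOC109404813, where 4.92% of all genes lay. DESeq2's Wald test called 1, LOC109418939, where it called 0.0652% of the 22995 genes it adjusted. One member was higher without overlap between the groups (5.24% of genes tested) and one was lower without overlap (5.12%). Since this contrast was known when the list was made, nothing is read from these counts.

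Added together, the 8 genes were lower with overexpression. The sum was 129.9, 135.2 and 132.9 CPM in overexpression libraries 1, 2 and 3, against 159.0, 164.8 and 163.8 CPM in controls 1, 2 and 3. The groups did not overlap, and the mean of 132.7 ± 2.64 CPM with overexpression was 81.6% of the control mean of 162.5 ± 3.08 CPM (SD, n = 3). Most of the gap lay in LOC109418939: without it the other 7 genes summed to 71.9 ± 6.23 CPM with overexpression and 73.9 ± 6.01 CPM in controls, with overlap. Those 7 include LOC109404813, which stood higher with overexpression. Without both genes the other 6 summed to 55.6 ± 6.46 CPM with overexpression and 63.3 ± 6.68 CPM in controls, again with overlap. In bulk ovary RNA, fewer muscle cells and less RNA per muscle cell cannot be told apart.

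**Figure D3:**
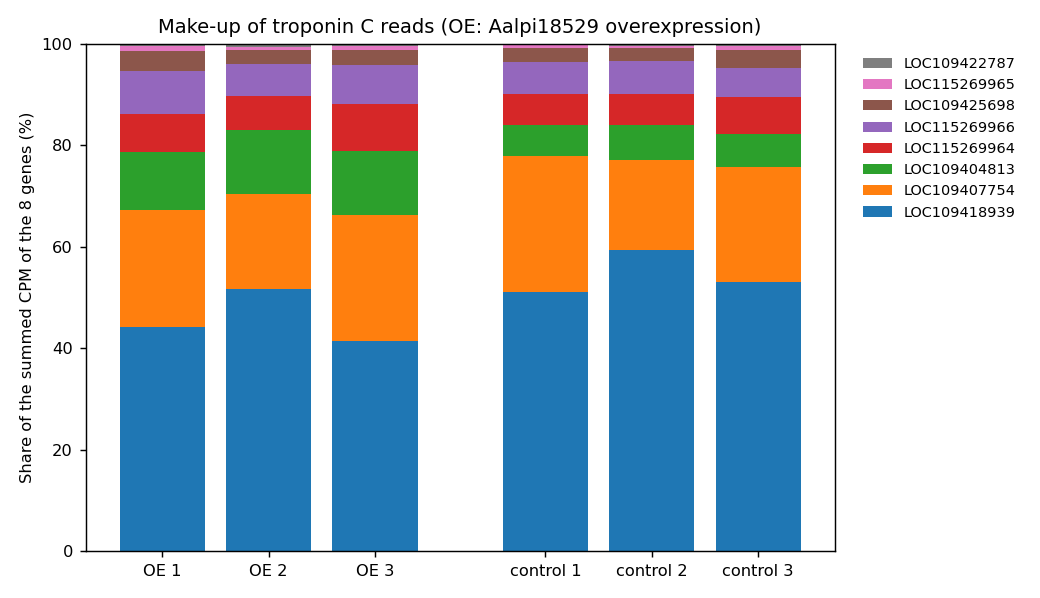
Share of each gene in the summed CPM of the 8 troponin C genes (vertical axis, percent) in each overexpression (OE, left) and control (right) library. LOC109404813 holds 11.4% to 12.8% of the sum in overexpression libraries and 6.15% to 6.86% in controls, while LOC109407754 holds similar shares in both groups.

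The make-up of the sum differed as well as its size. LOC109404813 held 12.2% ± 0.72 of it with overexpression and 6.51% ± 0.36 in controls (SD, n = 3). LOC109418939 held 45.8% ± 5.25 with overexpression and 54.5% ± 4.32 in controls, with overlapping libraries. The share of LOC109407754 was 22.2% ± 3.06 with overexpression and 22.4% ± 4.51 in controls. Besides LOC109404813, only the rare LOC115269965 had a share without overlap between groups, at 0.822% ± 0.151 with overexpression and 0.526% ± 0.171 in controls. In CPM the groups overlapped in LOC115269965, and a copy that stays level gains share when the sum is lower. In the other 6 genes the shares overlapped.

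The sum was far steadier between replicates than its largest parts. Its SD was 1.99% of the mean with overexpression and 1.90% in controls, close to the 2.18% and 1.94% that counting alone gives. For LOC109418939 the SD was 13.0% and 9.48% of the mean (overexpression and control), against counting spreads of 3.22% and 2.63%. For LOC109407754 it was 12.7% and 18.4%, against 4.63% and 4.12%.

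Both of these copies moved within the groups, in opposite order. Among overexpression libraries LOC109418939 was highest in library 2 and lowest in library 3, and LOC109407754 was lowest in library 2 and highest in library 3. Among controls LOC109418939 was highest in library 2 and lowest in library 1, and LOC109407754 was again the reverse. The deviations of their log2 CPM from the group means correlated at Pearson's r = -0.94 over the 6 libraries, the lowest of 28 pairs of members, where the others ran from -0.82 to 0.89. This pair was singled out after its values were seen, and the libraries of a group share 1 mean, so r is a description. Summed, the pair had 87.5, 95.2 and 88.0 CPM with overexpression and 123.9, 127.1 and 124.0 CPM in controls, so it too was lower in every overexpression library. Whether reads divided between the copies contribute to their opposite order was not tested.

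**Figure D4:**
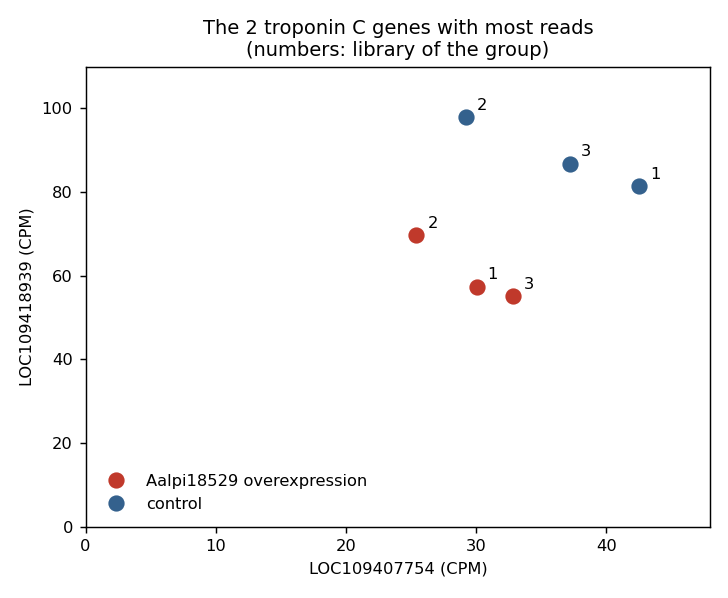
CPM of LOC109418939 (vertical axis) against LOC109407754 (horizontal axis) in each overexpression (red) and control (blue) library, numbered within its group. In each group the library with the most of one copy has the least of the other, and all overexpression libraries lie below all controls on the vertical axis.

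The partners of troponin C on the thin filament gave the setting for these values. Of 9 troponin T, troponin I and tropomyosin genes tested, 0 passed edgeR's adjusted limit, where 0.0129% of all genes did. At an unadjusted p under 0.05 there was 1, where 4.92% of all genes lay. DESeq2 called 0, against 0.0652% of the genes it adjusted. Their median log2 fold change was -0.05, against 0.00 over all genes tested, with 2 above 0 and 7 below. In none did the groups separate, where they did in 10.4% of all genes tested. With 9 genes, such counts cannot show a departure from those shares. Troponin T had 98.2, 90.6 and 104.4 CPM in overexpression libraries and 96.2, 104.5 and 103.6 CPM in controls. Troponin I (LOC109427533) averaged 33.6 ± 2.02 CPM with overexpression and 34.3 ± 2.89 CPM in controls, and a rarer troponin I-like gene (LOC115253670) 3.67 ± 0.97 CPM with overexpression and 4.81 ± 0.81 CPM in controls (SD, n = 3). The tropomyosin-2 gene with the most reads, LOC115266086, averaged 142 ± 10.3 CPM with overexpression and 143 ± 5.91 CPM in controls.

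**Figure D5:**
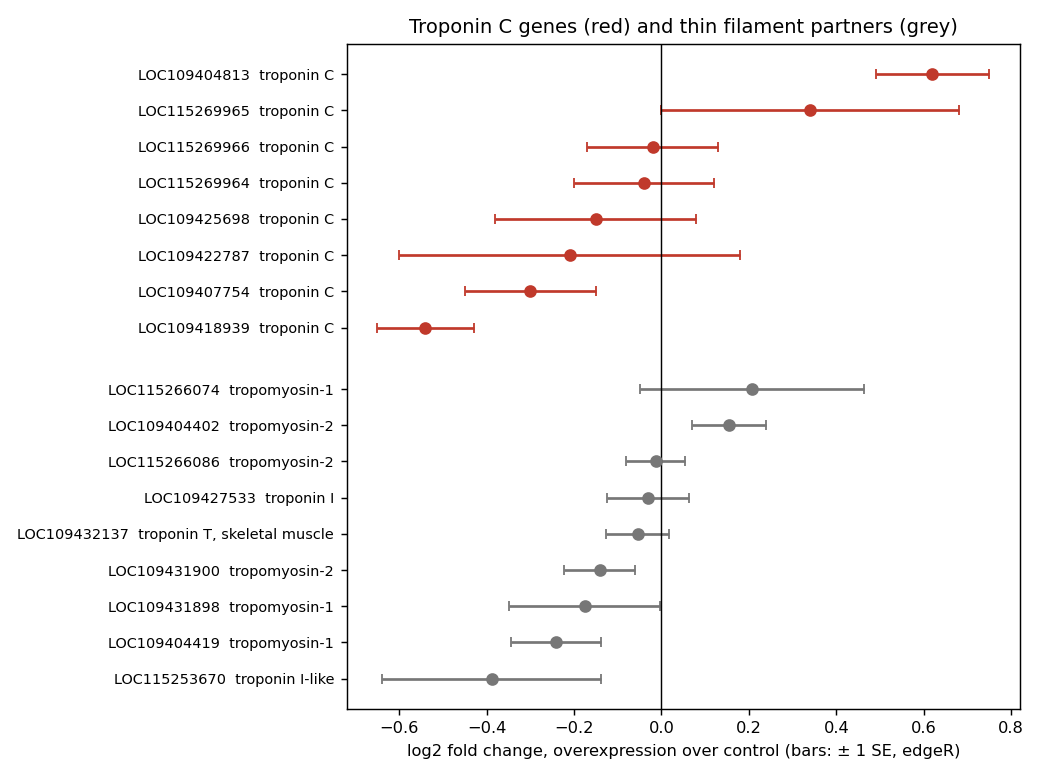
Log2 fold change of overexpression over control (horizontal axis, bars ± 1 SE from edgeR) for the 8 troponin C genes (red) and 9 thin filament partners (grey), sorted within each set. The troponin C genes run from -0.54 to 0.62 and the partners from -0.39 to 0.21.

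Relative to troponin T, the 2 copies that separated in CPM kept their directions. Troponin T was itself near level between groups (log2 fold change -0.05 ± 0.07, SE). These ratios therefore largely repeat the CPM values and are not separate evidence. LOC109418939 had 0.628 ± 0.127 of the CPM of troponin T with overexpression and 0.873 ± 0.055 in controls, and LOC109404813 had 0.167 ± 0.019 with overexpression and 0.104 ± 0.003 in controls (SD, n = 3). For the 8 summed, the ratio was 1.36 ± 0.11 with overexpression and 1.60 ± 0.04 in controls. On this scale the groups did not overlap for LOC109418939 or LOC109404813. LOC109407754 had 0.301 ± 0.018 of the CPM of troponin T with overexpression and 0.360 ± 0.081 in controls, with overlap.

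Other genes of the muscle lists were summed by list. The summed CPM of the 9 thin filament partners was 518 to 538 in overexpression libraries and 541 to 552 in controls. These did not overlap, but the margin was narrow: the overexpression mean was 97.2% of the control mean. None of the 9 genes separated the groups alone. The summed CPM of 14 thick filament genes was 467 to 498 in overexpression libraries and 482 to 504 in controls, with overlap. The thick filament list had 9 tested genes and 0 calls by edgeR, 0 at an unadjusted p under 0.05 and 0 by DESeq2, with muscle myosin heavy chain (LOC109429391) at 180 ± 9.48 CPM with overexpression and 188 ± 5.93 CPM in controls (SD, n = 3). The Z-disc and connecting filament list, in which 36 genes were tested, summed to 1666 to 1751 CPM in overexpression libraries and 1757 to 1796 CPM in controls, with 0 calls by edgeR, 4 at an unadjusted p under 0.05 (4.92% of all genes lay there) and 0 by DESeq2. Its median log2 fold change was -0.08, with 12 genes above 0 and 24 below, and the groups did not overlap in 1 higher and 7 lower genes (5.24% and 5.12% of all genes). Rows named only titin, titin-like or titin homolog, which may not all be muscle titins, made up 84.5% of this sum. Without them the list summed to 259.2 to 278.2 CPM in overexpression libraries and 268.2 to 280.2 CPM in controls, with overlap. The part that muscle content of the samples plays in the troponin C values was not tested.

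Lists of genes picked by description as markers of other cell types had reads in every library. Fat body genes (26 with values, vitellogenins, hexamerins and apolipophorins) summed to 327.2, 269.5 and 270.4 CPM in overexpression libraries 1, 2 and 3. Controls had 234.1 to 266.2 CPM, so the sums did not overlap, by a narrow margin. In 0 of the 11 tested fat body genes did the groups separate, where they did in 10.4% of all genes tested. Follicle cell genes (13, vitelline membrane proteins) summed to 25.9 to 35.4 CPM with overexpression and 28.2 to 33.1 CPM in controls. Genes listed for blood cells by description alone (103, mostly phenoloxidase-activating factors) summed to 654 to 661 CPM with overexpression and 640 to 684 CPM in controls. Gut genes (82, trypsins and peritrophins) summed to 13.9 to 21.2 CPM with overexpression and to 17.6, 18.8 and 40.1 CPM in controls 1, 2 and 3. In these 3 lists the groups overlapped. Rows blank in all libraries had been left out before the lists were made, so no listed gene could be blank throughout. EdgeR and DESeq2 called 0 genes of the fat body, follicle cell, blood cell and gut lists. At an unadjusted p under 0.05 there were 1, 0, 5 and 1 among their 11, 8, 52 and 7 tested genes, where 4.92% of all genes lay. Their part in the troponin C values was not tested.

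The genes most like the troponin C sum across the 6 libraries were found among 11425 genes of at least 5 CPM. They were LOC109397705 (myophilin-like, a calponin-family muscle protein), LOC109403247 (DNA polymerase alpha subunit B), LOC109409257 (syntaxin-1A), LOC109425692 (the sarcoplasmic or endoplasmic reticulum calcium-transporting ATPase) and LOC109416173 (AP-3 complex subunit beta-2-like). Pearson's r of log2(CPM + 1) was 0.986 to 0.996 and Spearman's rho 0.83 to 0.94 over 6 libraries, and 84 genes (0.735%) had r above 0.9. All 5 were lower in every overexpression library than in every control, which follows from choosing them for likeness to a sum whose groups do not overlap. Their sizes differed: the myophilin-like gene stood at 11.3 ± 0.28 CPM with overexpression and 18.8 ± 0.85 CPM in controls, and the calcium pump at 276.5 ± 2.36 CPM with overexpression and 298.0 ± 2.77 CPM in controls (SD, n = 3).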

How the data were processed

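The table the authors deposited holds estimated counts for 6 ovary libraries, unscaled and with 2 decimals. HISAT and Bowtie2 are named in the submitters' processing notes without versions. The counting program, strand setting and genome build are not given in these sources. Of 34479 rows, 10950 were blank in all libraries and left out, and 0 count columns belonged to no sample. Of the 23529 genes left, 8403 (35.7%) were whole within 0.001 in every library. Groups follow the genotype labels. Libraries of a group differed beyond counting noise (chi-square per degree of freedom 4.22 to 5.37).

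In edgeR 4.0.16 (R 4.3.3), rounded counts passed filterByExpr, were scaled by TMM and were tested by the quasi-likelihood F test with Benjamini-Hochberg adjustment over 15540 genes. The SE is the fold change over the root of F. CPM used unrounded counts. DESeq2 1.42.0, limma-voom (limma 3.58.1), other scalings and filters, a replicate block and leaving out each library were alternatives. The procedure was tested on simulated data. Counting spreads cover counting error only. The 8 members, the gene lists (patterns on descriptions, some catching unrelated names such as titin-like) and the choice of tests were made with earlier results of these data known. The genes named were all members, up to 4 most read genes of each list with any called, and the 5 most like the sum. Other genes were named after their values were seen. No sequences were used.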

Additional observations from a re-analysis of the deposited data

How the results depend on the processing

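The log2 ratio of the summed troponin C level was -0.29, and stayed between -0.31 and -0.28 when any library was left out. It was -0.29 under DESeq2 size factors, library size alone and with the 2 unlisted troponin C genes added, and -0.0422 for the 5 genes of one scaffold, both of these sums being chosen after seeing the data. Over 13 alternatives the log2 fold change of LOC109418939 ran from -0.66 to -0.47 and that of LOC109404813 from 0.57 to 0.68. Of the 8 members, 2 had a log2 fold change above 0, and 2 to 4 did when 1 library was left out, 4 without overexpression library 2 and 4 without control library 3. The number of members called was 0 in each edgeR and limma fit and 1 in DESeq2 (LOC109418939), whose cause was not tested. The number of thin filament partners called was 0 in every fit. Over all genes 2 were called, against 15 by DESeq2 and 0 to 2 with 1 library left out, the 0 falling without overexpression library 1 or 3 or control library 1 or 2. With the replicate block 0 genes were called (713 at an unadjusted p under 0.05). The labels do not say whether the replicate numbers pair the libraries. Over all genes tested, deviations of same-numbered libraries correlated at -0.01, 0.04 and -0.01, which does not settle it. All 8 members passed the filter, so the sum over those that passed was the same, -0.29. LOC109422787 was lost under the filter of 1 CPM in 3 libraries. Depth limits LOC109422787 and LOC115269965, with 7 to 21 estimated counts a library.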

Other observations

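Genes that release and clear calcium in muscle were also read. The calcium handling list, in which 6 genes were tested, summed to 304 to 310 CPM in overexpression libraries and 329.1 to 329.6 CPM in controls, without overlap. Most of that was the reticulum calcium pump LOC109425692, which clears calcium after contraction and also serves cells other than muscle. The ryanodine receptor LOC109399084, a calcium release channel, stood at 6.68 ± 0.64 CPM with overexpression and 8.53 ± 1.42 CPM in controls, and a sarcalumenin-like gene (LOC109622975) at 4.65 ± 0.53 CPM with overexpression and 5.83 ± 0.57 CPM in controls (SD, n = 3). In the 6 tested genes the groups did not overlap in 3, all lower with overexpression (5.12% of all genes tested), the calcium pump and these 2. No gene of the list passed edgeR's adjusted limit (0 of 6, with 1 at an unadjusted p under 0.05, where 4.92% of all genes lay, and 0 by DESeq2).

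The summed CPM of the other EF-hand calcium sensors was slightly higher with overexpression. It was 921.5 to 952.5 CPM with overexpression and 871.6 to 912.3 CPM in controls. Of 17 tested genes, 13 had a log2 fold change above 0, as did 7834 of all 15540 genes tested. The median was 0.08 against 0.00 over all genes. Only 1 of the 17 separated the groups, higher with overexpression, where 5.24% of all genes tested did. Calmodulin (LOC109421919), the general calcium sensor of animal cells, averaged 474 ± 4.87 CPM with overexpression and 449 ± 23.6 CPM in controls (SD, n = 3), with overlap. None was called by edgeR (0 of 17, where 0.0129% of all genes were) or by DESeq2 (0, against 0.0652% of the genes it adjusted). At an unadjusted p under 0.05 there were 0, where 4.92% of all genes lay.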
